A study of Mus musculus with 9 samples.

Results

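STAT3 and IL-6 family signalling is described here through 10 genes in 3 mouse epithelial lines: the cytokines Lif and Il6, the receptor chains Il6st, Osmr and Il4ra, the transcription factor Stat3, its feedback inhibitor Socs3, and the transcription factors Bcl3, Cebpb and Cebpd. The genes were given by name and found by symbol, as every non-control probe set that the array annotation gives to exactly 1 gene. This took 25 of 45037 non-control probe sets, and the 10 genes stood among 18193 measured. MDA-F471, the tumour line, derives from a lung adenocarcinoma. It arose in a Gprc5a-knockout female that had been injected with the tobacco carcinogen NNK 16 months earlier. The knockout line came from the trachea of a 3-week-old Gprc5a-knockout mouse, and its title calls the cells normal lung epithelium. The wild-type line is its counterpart from a 3-week-old mouse with intact Gprc5a. All 3 lines have the strain background C57/BL6 x sv129, and each was hybridised to 3 Affymetrix MG-430 2.0 arrays, 9 in all. Each group is 1 line, so genotype, line and handling cannot be told apart, and the tumour line differs from both others in organ, mouse age and NNK exposure as well. The labels do not say whether the replicates were separate cultures, so the p-values reflect spread among arrays alone, which may be technical.

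Cytokines of the IL-6 family bind receptors that share the signalling chain gp130, the product of Il6st. Attached JAK kinases then phosphorylate STAT3, which enters the nucleus and switches on genes of survival, growth and the acute phase response. Socs3 is one of these genes, and its protein blocks gp130 and the JAK kinases, which closes a negative feedback loop. In airway epithelium the pathway is known for its part in repair after injury and in lung tumour growth. Il4ra belongs to a neighbouring pathway, in which IL-4 and IL-13 act mainly through STAT6.

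The sequences just upstream of Socs3, Lif and Osmr are shown because these genes gave the largest differences among the 10. Each is the 250 bases before the gene's start in RefSeq (GRCm38.p6), read 5′ to 3′ on the gene's strand, and capitals mark a TTCNNNGAA match, the palindrome to which STAT factors bind. The windows lie at chr11:117969367-117969616 (minus strand) for Socs3, chr11:4257318-4257567 (plus strand) for Lif and chr15:6874314-6874563 (minus strand) for Osmr. Those of Socs3 and Osmr fall inside the longest span that RefSeq gives each gene.
Socs3: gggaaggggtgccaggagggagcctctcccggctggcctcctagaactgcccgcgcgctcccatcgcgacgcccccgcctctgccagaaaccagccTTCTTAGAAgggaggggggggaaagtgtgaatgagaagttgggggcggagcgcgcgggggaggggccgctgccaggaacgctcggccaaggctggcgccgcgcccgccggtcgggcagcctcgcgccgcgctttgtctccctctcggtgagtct
Lif: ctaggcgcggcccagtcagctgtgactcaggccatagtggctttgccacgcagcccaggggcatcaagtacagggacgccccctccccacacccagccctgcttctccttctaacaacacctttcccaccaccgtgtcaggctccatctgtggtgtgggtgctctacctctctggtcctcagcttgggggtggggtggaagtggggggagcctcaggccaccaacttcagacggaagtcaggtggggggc
Osmr: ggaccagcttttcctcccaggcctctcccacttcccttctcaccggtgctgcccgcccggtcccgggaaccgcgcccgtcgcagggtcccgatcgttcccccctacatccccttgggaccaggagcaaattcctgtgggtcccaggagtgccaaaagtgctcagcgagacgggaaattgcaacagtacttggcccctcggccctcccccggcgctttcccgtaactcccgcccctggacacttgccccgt
The Socs3 window held 1 match, TTCTTAGAA, starting 154 bases before the start. Of the 9 genes with a promoter in the RefSeq table, Socs3 was the only one with this motif in the 250 bases, and 7.02% of all 32851 promoters in that table held it. The motif TTGCNNAA, a C/EBP-type site searched on both strands, was found in the window of Il6 and in 9.56% of all promoters. A STAT6-type motif, the same palindrome with a spacer 1 base longer, was found in 5.85% of all promoters and in none of the 9 windows. A match is a description of letters and not evidence of binding. Cebpd had no entry in the table.

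The deleted gene itself, Gprc5a, read 6.96, 7.02 and 7.09 log2 on the tumour arrays and 7.20, 7.09 and 7.18 on the knockout arrays, against 8.63, 8.74 and 8.32 on the wild-type arrays; where its probes lie relative to the deleted part was not analysed here. The epithelial marker Epcam had means of 12.03, 11.73 and 11.74 log2 in the tumour, knockout and wild-type lines, and Cdh1 had 11.92, 12.63 and 12.88. The rest of the epithelial list differed widely between lines: in both tumour comparisons, calls took in 6 of its 8 genes, 3 higher and 3 lower. Of all genes, 14.2% were called between tumour and knockout lines and 16.6% between tumour and wild-type lines. The simple-epithelium keratin Krt18 had means of 14.08, 10.59 and 8.03 log2 in the tumour, knockout and wild-type lines, Krt8 had 13.99, 12.66 and 11.68, and Krt19 had 12.05, 5.32 and 10.22. The basal keratin Krt5 had means of 8.43, 14.38 and 14.46, Krt14 had 7.25, 14.68 and 14.52, and the basal factor Trp63 had 4.32, 10.69 and 12.05. The tumour line carried the simple-epithelium keratins at higher and the basal markers at lower levels than both tracheal lines, and the part of this in the results was not tested. Acta2, 1 of 5 smooth muscle markers, was called lower in both tumour comparisons and in the knockout against the wild-type line (means of 8.23, 9.84 and 11.24 in tumour, knockout and wild-type lines). Signal was taken as background where it lay under 5.15 log2, a level that 95% of the values of 27 bacterial controls did not pass. The leukocyte marker Ptprc was under it in all 3 lines, with means of 4.48, 4.41 and 4.48. In each line, however, 6 of the 8 leukocyte markers had means over background. Of the 8 markers, 1 was called higher in tumour than in knockout cells, the lipopolysaccharide co-receptor Cd14 (10.61 against 7.55). Against the wild-type line Cd14 was higher (10.61 against 7.13), and the macrophage marker Cd68 was lower (6.92 against 8.03). The mean over the 8 leukocyte markers ranged from 6.76 to 6.81 on tumour arrays, 6.34 to 6.42 on knockout arrays and 6.33 to 6.41 on wild-type arrays. Without Cd14 it ranged from 6.22 to 6.27, from 6.17 to 6.28 and from 6.24 to 6.31 on the same arrays. The fibroblast marker list had the same number of genes over background in each line, 6 of 8, with array means between 5.39 and 5.51. Wild-type replicate 3 had the largest 3′ minus 5′ difference of the beta-actin control, 1.78 log2, where the other arrays lay between 0.37 and 1.09.

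**Figure D1:**
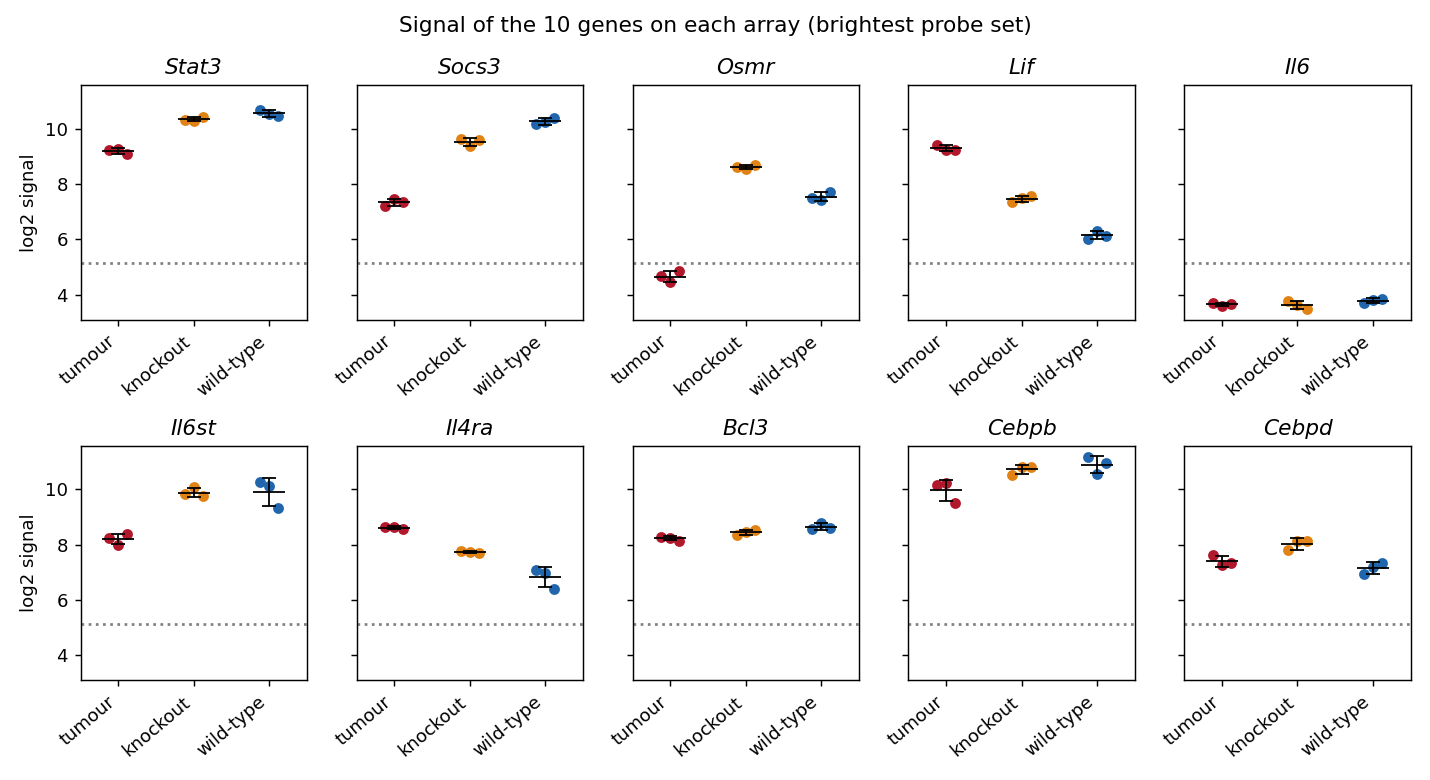
Log2 signal (vertical axis) of the brightest probe set of each of the 10 genes on each array, with 3 arrays per line; black bars are the mean and SD, and the dotted line is the background level of 5.15 log2. Lif and Il4ra are highest in the tumour line, Socs3, Stat3 and Il6st are lowest there, and Osmr drops under the dotted line, as Il6 does in all 3 lines.

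Between tumour and knockout lines, the IL-6 family ligand Lif was higher while the receptor chains Osmr and Il6st, the transducer Stat3 and the inhibitor Socs3 were lower. In all, 5 of the 10 genes were called, 1 higher and 4 lower, where a call needs an adjusted p under 0.05 in limma over all genes and at least a 2-fold difference; 14.2% of all genes were called in this comparison, 7.79% higher and 6.38% lower. Against the wild-type line the tumour line had 6 calls, 2 higher and 4 lower, where 16.6% of all genes were called, 8.09% higher and 8.46% lower. Between knockout and wild-type lines 2 genes were called, Lif and Osmr, both higher, where 4.88% of all genes were called, 1.9% higher and 2.98% lower. There 0 genes were called lower by limma, and 2 had a negative difference at an unadjusted p under 0.05, as 3769 of all 18193 genes did. The median log2 difference of the 10 genes was -0.69, -0.68 and -0.09 in the 3 comparisons, against 2.73e-05, 0.0101 and -0.00423 over all genes. Arrays of the lines compared were fully separate for 9, 8 and 7 of the 10 genes, and for 52.3%, 54.7% and 39.1% of all genes. The comparisons share arrays, so their counts are not independent of each other. In bulk RNA, fewer cells that express a gene and less RNA per cell cannot be told apart.

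Lif, leukaemia inhibitory factor, signals through gp130 and the LIF receptor. It read 9.42, 9.24 and 9.23 log2 on the tumour arrays, 7.33, 7.49 and 7.55 on the knockout arrays, and 6.01, 6.30 and 6.13 on the wild-type arrays. The 3 lines were fully separate, with the tumour line highest and the wild-type line lowest. Lif was 3.57-fold higher in tumour than in knockout cells (log2 difference 1.84 ± 0.10 SE, limma adjusted p = 1.31e-09). It was 8.88-fold higher in tumour than in wild-type cells (3.15 ± 0.10, adjusted p = 2.63e-12). In the knockout line it was 2.49-fold higher than in the wild-type line (1.31 ± 0.10, adjusted p = 2.04e-07). A dimmer second Lif probe set, with line means of 6.17, 5.97 and 5.83 in the same order, gave differences of 0.20, 0.34 and 0.14, and none was called. With the mean of both probe sets the knockout against wild-type difference was 0.73 and no longer called. The genes with the pattern most like that of Lif over the 3 line means, among 14385 genes compared, were Tmem71, Got1 and Exosc8, whose line differences departed from those of Lif by at most 0.16, 0.18 and 0.30 log2.

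Il6, the cytokine that gives the family its name, was not above background in any line. It read 3.70, 3.59 and 3.66 on the tumour arrays, 3.77, 3.61 and 3.48 on the knockout arrays, and 3.68, 3.82 and 3.84 on the wild-type arrays. All 9 values lay under 5.15 log2, and no fold is given. Its log2 difference was 0.03 for tumour against knockout (95% interval -0.18 to 0.24), and none of its 3 differences was called. Of the 8 other cytokines of the family on the list, 5 were measured. Ctf1, cardiotrophin 1, was lower in the tumour line, at 7.12, 7.19 and 7.22 log2, against 8.98, 8.88 and 8.88 in the knockout line and 9.34, 9.19 and 8.96 in the wild-type line. Its difference was -1.74 ± 0.10 from the knockout line (adjusted p = 2.17e-09) and -1.99 ± 0.10 from the wild-type line (adjusted p = 3.80e-10). Osm, the ligand of Osmr, read between 6.05 and 6.24 on all arrays, and Il11 between 5.23 and 5.77; neither was called in any comparison.

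Il6st encodes gp130. Its brightest probe set read 8.25, 8.0 and 8.38 log2 on the tumour arrays, 9.82, 10.09 and 9.75 on the knockout arrays, and 10.27, 10.13 and 9.34 on the wild-type arrays. Every tumour array lay under every other array, and the knockout and wild-type arrays overlapped. The tumour line was 3.19-fold lower than the knockout line (-1.67 ± 0.19 SE, limma adjusted p = 3.42e-06) and 3.25-fold lower than the wild-type line (-1.70 ± 0.19, adjusted p = 2.46e-06). Without wild-type replicate 3, the array with the largest beta-actin difference, tumour against wild-type was -1.99 (adjusted p = 1.54e-08). The 4 probe sets of Il6st differed in size and in 1 case in sign: beside the brightest, tumour against wild-type was -0.99, -0.36 and 0.17, and tumour against knockout -0.80, -0.61 and -0.17. None of these 3 was called, and the mean of the 4 probe sets was not called either (-0.72 against wild-type and -0.81 against knockout). Knockout and wild-type lines differed by -0.03 (95% interval -0.44 to 0.39).

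Osmr, the oncostatin M receptor chain that pairs with gp130, had the largest difference of the 10 genes between tumour and knockout lines. Its brightest probe set read 4.68, 4.44 and 4.84 log2 on the tumour arrays, 8.59, 8.52 and 8.67 on the knockout arrays, and 7.48, 7.40 and 7.72 on the wild-type arrays. The tumour arrays all lay under background, so the folds are lower bounds computed against 5.15 log2. The tumour signal of Osmr was lower than the knockout signal by at least 10.9-fold (signal difference -3.94 ± 0.12 SE, limma adjusted p = 9.80e-13). Relative to the wild-type line the tumour line was at least 5.23-fold lower (-2.88 ± 0.12, adjusted p = 2.57e-11). The knockout line was 2.09-fold higher than the wild-type line (1.06 ± 0.12, adjusted p = 6.09e-06), just past the 2-fold limit. Without wild-type replicate 2 this difference was 1.00, a shade under 2-fold, and the call was lost, which left 1 gene called in that comparison. A second probe set differed in the same direction by less, at -0.89, -0.43 and 0.46 for tumour against knockout, tumour against wild-type and knockout against wild-type. It was not called at 2-fold, and the remaining probe set was under background on all 9 arrays.

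Il4ra, the alpha chain shared by the IL-4 and IL-13 receptors, was highest in the tumour line. Its brightest probe set read 8.65, 8.65 and 8.56 log2 on the tumour arrays, 7.77, 7.73 and 7.69 on the knockout arrays, and 7.08, 6.99 and 6.41 on the wild-type arrays. The 3 lines did not overlap. The tumour line was 3.47-fold higher than the wild-type line (1.79 ± 0.14 SE, limma adjusted p = 3.84e-08), and a second probe set gave 1.25 (adjusted p = 1.35e-05 over all probe sets). The tumour against knockout difference was 0.89 ± 0.14 (adjusted p = 7.23e-05) and knockout against wild-type 0.90 ± 0.14 (adjusted p = 0.000159), both under 2-fold and so not called. Without wild-type replicate 1 the knockout against wild-type difference was 1.03 and was called, which made 3 genes. The last Il4ra probe set, ending in _x_at and so open to cross-hybridisation, differed by at most 0.12 log2 in any comparison.

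Among the other receptor chains of the family, Cntfr, the ciliary neurotrophic factor receptor, was called higher in the tumour line. It read 7.88, 8.10 and 7.69 log2 there, against 6.43, 6.82 and 6.61 in the knockout line and 6.62, 6.73 and 6.55 in the wild-type line. The differences were 1.27 ± 0.12 (adjusted p = 4.86e-07) and 1.26 ± 0.12 (adjusted p = 4.65e-07). With the mean of its probe sets they were 0.79 and 0.87 and not called. Lifr, the LIF receptor, had means of 5.95, 6.0 and 6.06 log2 in the tumour, knockout and wild-type lines, above but close to background, and Il6ra had 7.29, 7.53 and 7.47. Neither was called in any comparison. Of the IL-4 and IL-13 pathway list, 1 of 6 measured genes was called lower in both tumour comparisons, where 6.38% and 8.46% of all genes were. This was Il13ra1, which pairs with Il4ra, lower on its brightest probe set (-1.08 and -1.16). With the mean of its probe sets the differences were -0.63 and -0.49 and not called. Il13ra1 also lost its call against the knockout line without tumour replicate 2 (-0.97) and without knockout replicate 3 (-0.94).

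**Figure D2:**
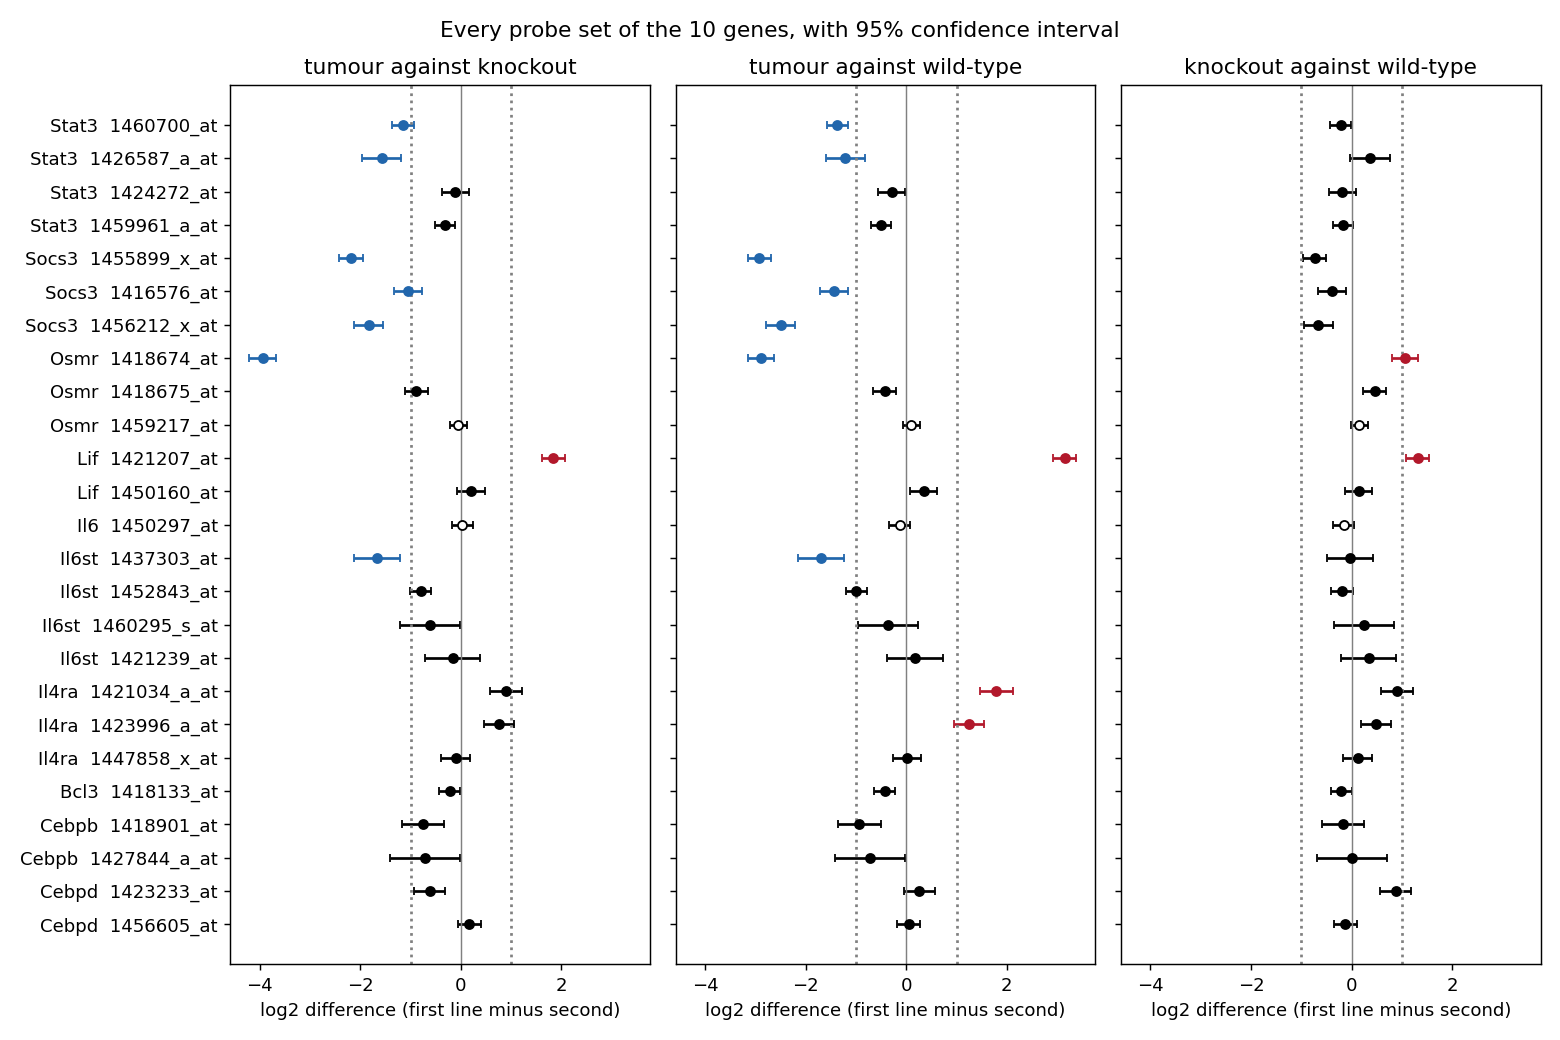
Log2 difference (horizontal axis, first line minus second) of all 25 probe sets of the 10 genes in the 3 comparisons, with 95% confidence intervals; red and blue points were called higher and lower, black points were not called, open points lay under background in both lines, and dotted lines mark 2-fold. All 3 Socs3 probe sets lie left of -1 in both tumour comparisons, while the probe sets of Stat3, Osmr, Lif and Il6st spread widely within a gene.

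Stat3 was lower in the tumour line than in both tracheal lines. Its brightest probe set read 9.22, 9.28 and 9.06 log2 on the tumour arrays, 10.31, 10.28 and 10.43 on the knockout arrays, and 10.68, 10.54 and 10.45 on the wild-type arrays. The tumour arrays were more than 1 log2 unit under every other array, and the knockout and wild-type lines lay within 0.22 log2 of each other on average. Stat3 was 2.23-fold lower in tumour than in knockout cells (-1.15 ± 0.10 SE, limma adjusted p = 1.21e-07) and 2.58-fold lower than in the wild-type line (-1.37 ± 0.10, adjusted p = 1.49e-08). The knockout against wild-type difference was -0.22 ± 0.10 (adjusted p = 0.129). A second bright probe set was called in both tumour comparisons as well, at -1.58 and -1.21. Of the dimmer probe sets, 1 gave -0.11 and -0.29 and 1 gave -0.32 and -0.49, and neither was called. With the mean of all 4 the differences were -0.79 and -0.84, under 2-fold. The genes most like Stat3 in pattern were Cuedc1, Tcta and Mau2, within 0.02, 0.03 and 0.03 log2 in every line difference. These arrays measure Stat3 RNA and not the phosphorylated protein.

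Socs3, the feedback inhibitor, was lowest in the tumour line. It read 7.22, 7.45 and 7.34 log2 on the tumour arrays, 9.62, 9.37 and 9.59 on the knockout arrays, and 10.15, 10.23 and 10.39 on the wild-type arrays. The 3 lines were fully separate, with the tumour line lowest. Socs3 was 4.55-fold lower in tumour than in knockout cells (-2.19 ± 0.10 SE, limma adjusted p = 2.10e-10) and 7.57-fold lower than in the wild-type line (-2.92 ± 0.10, adjusted p = 6.80e-12). The knockout line was 1.66-fold lower than the wild-type line (-0.73 ± 0.10, adjusted p = 7.90e-05), under the 2-fold limit and not called. The brightest probe set ends in _x_at, which marks possible cross-hybridisation. The probe set of Socs3 without that mark was also called in both tumour comparisons, at -1.05 ± 0.13 and -1.44 ± 0.13, smaller than on the brightest. The other _x_at probe set was called in both as well, at -1.83 and -2.49. Between knockout and wild-type lines the probe set without that mark gave -0.39 (adjusted p = 0.0595 over all probe sets). The other _x_at probe set gave -0.66 there (adjusted p = 0.00385), under 2-fold and not called. Over all 25 probe sets, 8 were called for tumour against knockout, 1 higher and 7 lower, where 11.4% of all probe sets were called (6.19% higher and 5.18% lower). For tumour against wild-type 10 were called, 3 higher and 7 lower, where 13.1% were called in all (6.69% higher and 6.42% lower). For knockout against wild-type 2 were called, both higher, where 3.71% were called in all (1.61% higher and 2.11% lower). Sytl1, Tmc7 and Lgalsl had the patterns most like Socs3, within 0.04, 0.09 and 0.13 log2.

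Socs2, which restrains growth hormone and STAT5 signalling, was the inhibitor with the largest difference. It read 7.68, 7.38 and 7.57 log2 in the tumour line, against 11.48, 11.72 and 11.37 in the knockout line and 11.67, 11.81 and 11.55 in the wild-type line. It was 15.8-fold lower in tumour than in knockout cells (-3.98 ± 0.12, adjusted p = 8.50e-13) and 17.5-fold lower than in the wild-type line (-4.13 ± 0.12, adjusted p = 4.25e-13). With the mean of its 6 probe sets the differences were -2.40 and -2.31, still called. A dimmer one of these gave -0.67 and -0.66, under 2-fold. Of the 15 inhibitors measured, Socs2 was the 1 called between tumour and knockout lines, where 14.2% of all genes were called, 6.38% lower. Between tumour and wild-type lines 4 were called, all lower, where 8.46% of all genes were called lower. The others were Cish (-1.14 ± 0.10), Socs7 (-1.12 ± 0.09) and Pias3 (-1.04 ± 0.10), and with the mean of their probe sets Socs7 (-0.48) and Pias3 (-0.56) were not called. Pias3 also lost its call without wild-type replicate 1 (-0.98). Between knockout and wild-type lines 0 of 15 were called by limma, and 9 had an unadjusted p under 0.05, as 35% of all genes did in that comparison. The median of the list was -0.13, -0.50 and -0.21 log2 in the 3 comparisons. Socs1 was not called in any of them.

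Of the 4 JAK kinases, Jak2 was called higher in tumour than in wild-type cells, where 8.09% of all genes were called higher. It read 10.47, 10.68 and 10.79 log2 in the tumour line, 9.73, 9.67 and 9.61 in the knockout line, and 9.24, 9.39 and 9.36 in the wild-type line. The difference was 1.32 ± 0.10 from the wild-type line (adjusted p = 2.82e-08) and 0.98 ± 0.10 from the knockout line, just under 2-fold. A second Jak2 probe set was called in both, at 1.63 from the wild-type line and 1.34 from the knockout line (adjusted p = 2.12e-05 over all probe sets). Jak1, the main kinase of gp130, differed by 0.02 between tumour and knockout lines and by -0.57 between knockout and wild-type lines, and was not called. Of the 5 other STAT factors measured, 2 were called lower in each tumour comparison, where 6.38% and 8.46% of all genes were. Stat5b was lower in both (-1.06 and -1.31) and Stat2 against the knockout line (-1.05), while Stat4 was lower in both the tumour (-1.29 ± 0.13) and the knockout line (-1.16 ± 0.13) than in the wild-type line. The Stat5b calls rest on its brightest probe set, since a second gave -0.07 and -0.28 in the tumour comparisons; its call against the knockout line was also lost without knockout replicate 1 (-0.99). The call of Stat2 was lost without tumour replicate 2 (-0.95) and without knockout replicate 3 (-0.99). Stat6 was not called in any comparison.

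Cebpb, a C/EBP factor first known as a nuclear factor of IL-6 expression, read 10.15, 10.23 and 9.52 log2 on the tumour arrays, 10.53, 10.81 and 10.82 on the knockout arrays, and 11.16, 10.57 and 10.96 on the wild-type arrays. The tumour arrays lay under all others, with replicate 3 lowest. The differences were -0.76 ± 0.18 from the knockout line (limma adjusted p = 0.00257) and -0.93 ± 0.18 from the wild-type line (adjusted p = 0.000446), both under 2-fold. The second was past 2-fold without tumour replicate 1 (-1.02), tumour replicate 2 (-1.06) or wild-type replicate 2 (-1.09), and -0.71 without tumour replicate 3. A second Cebpb probe set gave -0.72 and -0.71 in the tumour comparisons and was not called. Cebpd, a C/EBP factor induced in the acute phase, read 7.63, 7.27 and 7.32 on the tumour arrays, 7.79, 8.14 and 8.15 on the knockout arrays, and 6.92, 7.18 and 7.34 on the wild-type arrays. The knockout line stood above both others, by 0.88 ± 0.14 over the wild-type line (adjusted p = 0.000164), while the tumour line was 0.62 ± 0.14 under the knockout line (adjusted p = 0.00138); neither reached 2-fold. A second Cebpd probe set gave 0.17 for tumour against knockout, opposite in sign to the brightest, with arrays that did not overlap. It gave 0.05 for tumour against wild-type and -0.12 for knockout against wild-type, with overlapping arrays, and was not called in any comparison. Of 3 further C/EBP genes measured, Cebpa was called in all comparisons, lower in the tumour line (log2 difference -3.40 from knockout and -2.25 from wild-type) and higher in the knockout than in the wild-type line (1.15).

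Bcl3, a nuclear IkB-type protein that binds NF-kB p50 and p52, showed the smallest spread of the genes above background. It read 8.29, 8.26 and 8.15 log2 on the tumour arrays, 8.36, 8.45 and 8.54 on the knockout arrays, and 8.57, 8.79 and 8.61 on the wild-type arrays. The arrays of the 3 lines did not overlap, yet the differences were small, at -0.22 ± 0.10 for tumour against knockout (limma adjusted p = 0.0729), -0.43 ± 0.10 for tumour against wild-type (adjusted p = 0.00158) and -0.20 ± 0.10 for knockout against wild-type (adjusted p = 0.147). Of 4 NF-kB subunits measured, 0 were called by limma in the 3 comparisons, and 4, 1 and 3 had an unadjusted p under 0.05, as 49.5%, 51.9% and 35% of all genes did.

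Genes that textbooks give as targets of STAT3 went both ways in each comparison. Among them, Lrg1 and Nnmt had means under background in all 3 lines. Of 20 measured, 3 were called higher and 1 lower between tumour and knockout lines, where 7.79% and 6.38% of all genes were. Between tumour and wild-type lines 6 were called higher and 1 lower, where 8.09% and 8.46% of all genes were. Between knockout and wild-type lines 3 were called higher and 1 lower, where 1.9% and 2.98% of all genes were. The list medians were 0.285, 0.333 and 0.0408 log2. The cyclin gene Ccnd1 was higher in all 3, by 1.28, 3.49 and 2.22, and the apoptosis inhibitor gene Birc5 by 2.23 and 2.42 in the tumour comparisons. Bcl2l1, which encodes BCL-XL, was higher by 1.44 ± 0.11 and Myc by 1.37 ± 0.14 in tumour than in wild-type cells. Against the knockout line the brightest Bcl2l1 probe set gave 0.89 and Myc 0.996, both under 2-fold. Dimmer Bcl2l1 probe sets gave 1.58 and 1.47 there, both called, and 0.34, not called. The acute phase gene Saa3 read 7.40, 7.90 and 7.77 log2 on the knockout arrays against 6.68, 6.56 and 6.71 on the wild-type arrays, a difference of 1.04 ± 0.12. That call was lost without knockout replicate 2 (0.93), knockout replicate 3 (1.00) or wild-type replicate 2 (0.99). Lcn2, an acute phase iron-carrier binding protein, was lower in tumour than in knockout cells (-4.19), and the adhesion molecule gene Icam1 was higher by 1.63. Between knockout and wild-type lines Lcn2 read 10.06, 11.21 and 10.81 log2 against 5.54, 5.63 and 5.18, the largest difference on the list (5.24 ± 0.22, 37.8-fold higher, adjusted p = 2.42e-10), and Icam1 was the 1 gene called lower (-1.82 ± 0.10). Between tumour and wild-type lines Hif1a, a hypoxia response factor, was the 1 gene called lower (-1.15 ± 0.11), and the transglutaminase gene Tgm2 was called higher (1.24 ± 0.13). Lcn2 was higher in the tumour line than in wild-type cells (1.05), a call lost without tumour replicate 1 (0.98), tumour replicate 3 (0.99) or wild-type replicate 3 (0.92). Fos, Junb, Pim1, Mcl1 and Timp1 were not called in any comparison. Over the 67 measured of 76 listed genes outside the 10, 11, 18 and 6 were called in the 3 comparisons. The share of all genes called was 14.2%, 16.6% and 4.88%. The medians of the 67 genes were -0.05, -0.07 and -0.07 log2.

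**Figure D3:**
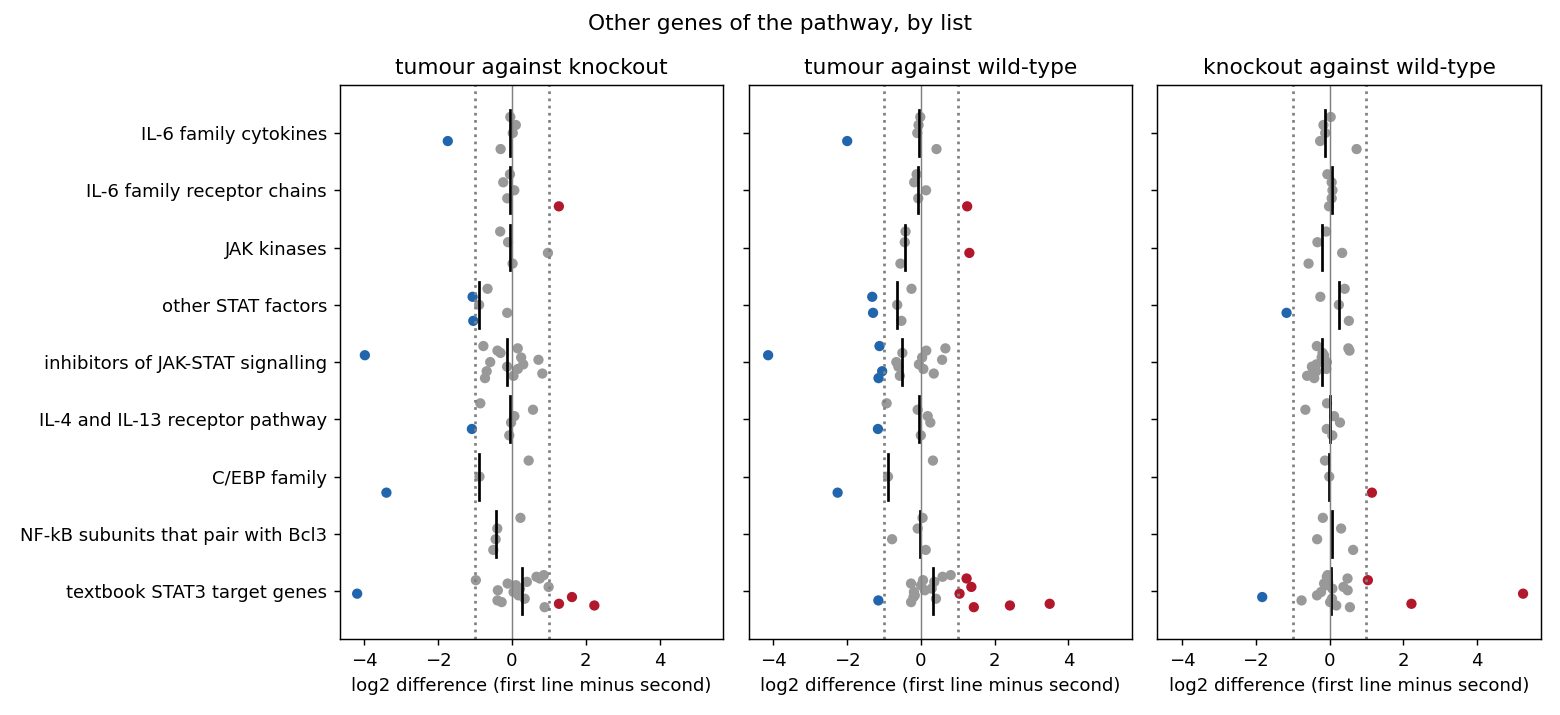
Log2 difference (horizontal axis, first line minus second) of the 67 other pathway genes, by list (vertical axis); red and blue points were called higher and lower, grey points were not called, black bars are list medians and dotted lines mark 2-fold. The far left points of the tumour comparisons are Socs2 among the inhibitors, Cebpa in the C/EBP family and, against the knockout line, Lcn2.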

How the data were processed

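RNA from 3 cell lines was labelled as biotin cRNA and hybridised to 3 arrays each, per the labels. The deposited values are log2 signals, 1 per probe set and array, with array medians between 6.29 and 6.34; how the authors corrected background and normalized is not stated in the sources used here. Arrays give no counts, so their number limits the precision.

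Of 45101 probe sets, 64 were controls, 34945 had 1 gene symbol, 932 several and 9160 none here. Symbols were updated through Entrez ID where RefSeq held it (34741). Each gene was represented by its probe set with the highest mean, which gave 18193 genes. All 9 arrays entered a linear model of the 3 lines, in limma 3.58.1 in R 4.3.3 (lmFit, eBayes, 6 residual degrees of freedom), once over genes and once over all 45037 non-control probe sets. P-values are two-sided and Benjamini-Hochberg adjusted over all features of that fit; those given for single probe sets come from the probe-set fit. The procedure was tested on simulated data with independent noise for each gene and array, which does not cover deviations that genes on an array share.

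The 10 genes, the pathway lists and the background level were chosen with earlier results of these data known. The text names all 10 genes and their probe sets, called genes of the pathway lists, and the 3 genes with the line pattern nearest to Stat3, Socs3 and Lif; uncalled list genes, and markers other than Epcam, Cdh1 and Ptprc, were named after their values were seen. Sequences are from RefSeq.

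Same-numbered arrays did not deviate together (correlations of deviations between -0.14 and 0.12 over 9 pairs, 1 of them over 0.1), so the numbers were not taken as pairs.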

Additional observations from a re-analysis of the deposited data

How the results depend on the processing

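Quantile normalization, centring of array medians, an intensity trend, a fit of only the 2 lines compared, the replicate block, omission of the dimmest 40% of probe sets and omission of probe sets ending in _x_at or _s_at moved no count of called genes among the 10 by over 1.5 times. With the replicate number as a block, 5, 6 and 2 of the 10 genes were called for tumour against knockout, tumour against wild-type and knockout against wild-type, as without it; an array correlated best with its own number in another line in 8 of 18 cases, and 4 of 9 arrays did so in both other lines. When a gene's probe sets were averaged, the tumour against knockout count in limma fell from 5 to 3 of the 10 genes. The tumour against wild-type count fell from 6 to 4. Knockout against wild-type went from 2 to 0 calls, where 6 of the 10 genes had an unadjusted p under 0.05. No share of all genes is given here for the averaged probe sets, so these counts have no background beside them. For tumour against knockout and knockout against wild-type, the gene counts with no fold limit were 8 and 5, where 44.5% and 26.4% of all genes passed. With 1.5-fold they were also 8 and 5, where 26.8% and 12% passed. Over probe sets, the counts were 15, 16 and 8 with no fold limit for tumour against knockout, tumour against wild-type and knockout against wild-type, where 35.4%, 37.8% and 17.1% of all probe sets passed. With 1.5-fold they were 14 and 6 for the first and last of these, where 22.1% and 9.17% passed. Leaving out 1 array at a time gave 1 to 3 genes and 1 to 3 probe sets for knockout against wild-type. Among the 10 genes, the direction turned under these alternatives for uncalled differences only. Il6st between knockout and wild-type lines (knockout minus wild-type) was 0.0432 with quantile normalization and 0.0928 with the mean of probe sets, and ranged from -0.31 to 0.15 without 1 array. Il6 between tumour and knockout lines was -0.0419 without knockout replicate 3 and reached 0.10. Signals near background, as for Il6, Lifr and Osmr in the tumour line, limit what these arrays can show of differences there.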

Other observations

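Within the wild-type line, 3 of the 4 Il6st probe sets spread widely between arrays. The probe set ending in _s_at read 8.49, 7.86 and 7.19 log2 on wild-type replicates 1, 2 and 3, and the dimmest probe set 7.41, 6.96 and 6.21. The remaining probe set spread less, at 9.49, 9.35 and 9.30. The 3′ minus 5′ difference of the beta-actin control on the same arrays was 0.75, 1.09 and 1.78 log2, and that of Gapdh 0.33, 0.90 and 1.20. In the knockout line, where the beta-actin difference was 0.92, 0.90 and 0.95, the _s_at probe set read 8.26, 7.94 and 8.09. Whether the control difference bears on these probe sets was not tested. Between lines, the beta-actin difference averaged 0.57 in the tumour line, against 0.93 in the knockout line and 1.21 in the wild-type line, with an exact permutation p of 0.1 against each, the smallest that 3 against 3 arrays allow. The Gapdh difference averaged 0.47, 0.52 and 0.81 in the same lines, with an exact permutation p of 0.7 between tumour and knockout lines and 0.3 between tumour and wild-type lines.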
